A study of Homo sapiens with 4 samples.

Results

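The genes described here are 10 targets of the ATF6 and XBP1 arms of the unfolded protein response: HSPA5, HSP90B1, PDIA4, DNAJB9, SDF2L1, MANF, CRELD2, HERPUD1, EDEM1 and XBP1 itself. They were taken by name, and all 10 were found among the 23004 named genes of the files. The RNA was that of BEAS-2B, an immortalized human bronchial epithelial line. The cells had been exposed for 48 h to 100 µM of the compound, formaldehyde by the title of the series, or left without it, and each group held 2 libraries (formaldehyde replicates 1 and 2, untreated replicates 1 and 2). Nothing in the labels ties a replicate to its own culture, so a p-value here reflects library spread that could be technical, and both groups are 1 line. The level of a gene is its FPKM, the number of fragments scaled to transcript length and library depth, summed over its transcript models.

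The unfolded protein response is the set of signals that answers unfolded protein in the endoplasmic reticulum (ER). When it is active, the membrane sensor ATF6 is cut to release a transcription factor, and the sensor IRE1 removes a short intron from the XBP1 messenger RNA, so that a stronger factor is made. These factors switch on chaperones, disulfide isomerases and the machinery that sends misfolded protein out of the ER for degradation. Another sensor, PERK, slows translation and acts through ATF4.

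Many targets of this response carry an ER stress response element near the start of transcription. The sequences below are shown because they are the sites through which ATF6 and XBP1 are known to act, and because they mark what several members share at the level of DNA. Windows of 250 bases before to 50 bases after each gene's start were taken from RefSeq on GRCh38.p14, where all 10 members had a window. They were searched on both strands for the element known as ERSE (CCAAT and CCACG with 9 bases of any kind between them), for ERSE-II (ATTGG and CCACG with 1 base of any kind between them) and for the core of the unfolded protein response element (TGACGTGG). The capitals mark the element in each line, read on the strand of the gene, and an element on the opposite strand therefore appears as its reverse complement.
HSPA5, ERSE, chr9:125241376-125241424, minus strand: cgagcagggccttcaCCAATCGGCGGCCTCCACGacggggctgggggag
HSP90B1, ERSE far from the start, chr12:103930201-103930249, plus strand: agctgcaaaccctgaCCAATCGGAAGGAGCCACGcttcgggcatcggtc
HSP90B1, reversed ERSE near the start, chr12:103930306-103930354, plus strand: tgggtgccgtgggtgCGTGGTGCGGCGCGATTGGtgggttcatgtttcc
XBP1, ERSE, chr22:28800588-28800636, minus strand: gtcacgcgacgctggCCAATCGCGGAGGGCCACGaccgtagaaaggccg
CRELD2, reversed ERSE, chr22:49918539-49918587, plus strand: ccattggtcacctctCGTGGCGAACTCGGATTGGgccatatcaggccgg
HERPUD1, ERSE-II, chr16:56932010-56932050, plus strand: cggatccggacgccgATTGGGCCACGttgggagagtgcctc
SDF2L1, reversed ERSE-II, chr22:21642099-21642139, plus strand: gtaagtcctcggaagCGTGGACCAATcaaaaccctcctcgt
ERSE or ERSE-II was found in 6 of the 10 members, HSPA5, HSP90B1, XBP1 and CRELD2 with ERSE and HERPUD1 and SDF2L1 with ERSE-II. Over all 35116 windows of that length the share with either element was 0.131%. The members were listed as targets of these factors, so the excess describes the list and is no finding. The core TGACGTGG was in 0 member windows and in 0.729% of all windows. PDIA4, MANF, DNAJB9 and EDEM1 had none of the 3 spellings in the window searched, which says nothing of sites elsewhere.

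None of these genes differed between the groups beyond the spread of its replicates by the test. In simulated libraries this test recovered 0% of genes changed 2-fold, so a change of that size need not have been called. The members' 95% intervals from the same fit, on the FPKM + 1 scale, had upper ends from 1.52-fold (DNAJB9) to 1.9999-fold (EDEM1). Their lower ends went down to 0.425-fold for HSP90B1 and 0.465-fold for PDIA4. Of the 10 members, 7 had a higher mean and 3 a lower mean with formaldehyde on the log2(FPKM + 1) scale, and the log2 fold changes (formaldehyde over untreated) ran from -0.29 for HSP90B1 to 0.36 for SDF2L1. Over all genes tested 55.1% had a log2 fold change above 0. The split depended on scaling and on single libraries, with 4 higher and 6 lower after rescaling to the same FPKM sum or without untreated replicate 1, 5 and 5 after quantile normalization or without formaldehyde replicate 2, and 8 and 2 without formaldehyde replicate 1. No member passed the test, limma with Benjamini-Hochberg adjustment over the 12407 genes with a mean of at least 1 FPKM (adjusted p = 0.9999 for each member), and 0 had an unadjusted p under 0.05. Over all genes tested, 0.0806% were called higher and 0.0725% lower by this test (0.153% in either direction), and 2.76% had an unadjusted p under 0.05. Kept to genes with a transcript of at least 300 nt, as every member has, the test called 1 gene in place of 19. The median log2 fold change of the members was 0.05, against 0.03 over all genes tested. SDF2L1 was the member whose groups did not overlap (1 of 10, higher with formaldehyde). Over all genes the groups did not overlap upward in 16.2% and downward in 10.7%, so that 1 of 10 is not above the background. With 2 libraries a group an exact permutation test cannot give a two-sided p under 0.333, which is the value SDF2L1 had.

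**Figure D1:**
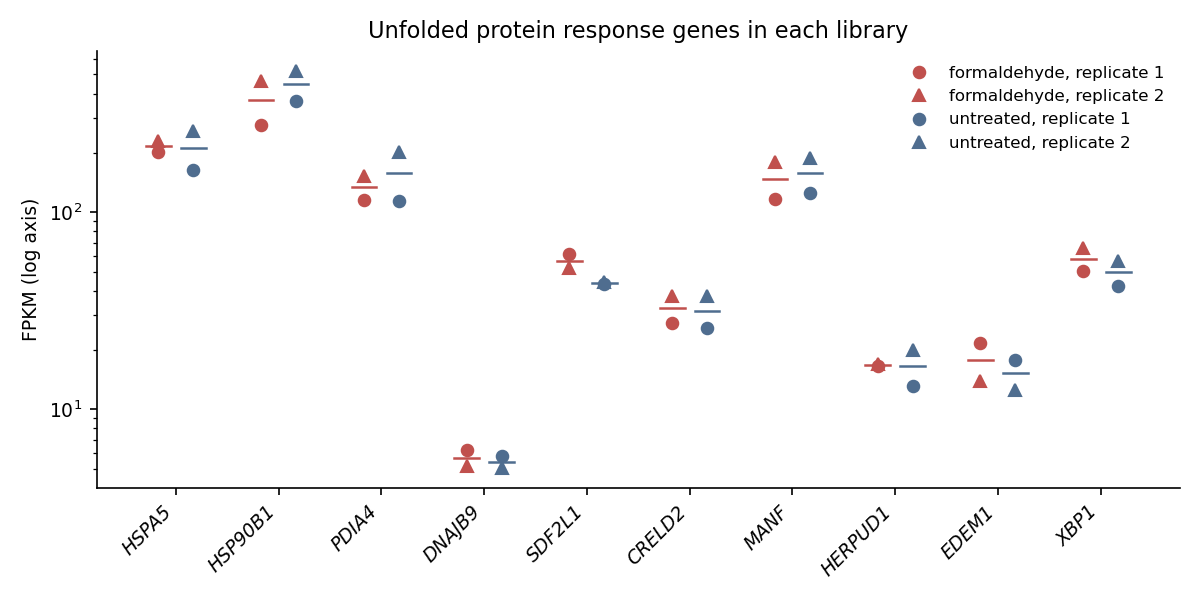
FPKM of the 10 members (log axis) in the 4 libraries, formaldehyde in red left of untreated in blue, with circles for replicate 1, triangles for replicate 2 and a bar at the mean of each pair. The groups overlap for every member except SDF2L1, which stands at 61.3 and 52.0 FPKM with formaldehyde against 43.3 and 44.5 FPKM untreated.

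FPKM is scaled per length, so levels can be ordered between genes. HSP90B1 was the highest member in all 4 libraries, ranking 292 and 153 among the named genes in formaldehyde replicates 1 and 2 and 203 and 136 in untreated replicates 1 and 2. HSPA5 came next, then MANF and PDIA4, whose ranges overlapped (116 to 189 FPKM and 114 to 203 FPKM over the 4 libraries). XBP1 and SDF2L1 overlapped as well, at 42.0 to 65.5 and 43.3 to 61.3 FPKM. CRELD2 lay apart from them at 25.7 to 37.7 FPKM, HERPUD1 and EDEM1 overlapped at 13.1 to 20.0 and 12.6 to 21.8 FPKM, and DNAJB9 was lowest at 5.05 to 6.20 FPKM. Summed over the members, the level was 894 and 1220 FPKM with formaldehyde and 918 and 1351 FPKM untreated, which is 0.166% and 0.237% of all named genes against 0.179% and 0.273%.

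Of the 3 folding enzymes and chaperones with high levels, none passed the test. HSPA5 encodes BiP, the ER chaperone of the heat shock protein family that binds unfolded chains and holds the stress sensors inactive (chromosome 9, hg19, 127997127 to 128003666, the build of all member positions that follow). It stood at 201 and 231 FPKM in formaldehyde replicates 1 and 2, against 163 and 259.6 FPKM in untreated replicates 1 and 2. Both formaldehyde values lay between the untreated ones. The means were 216 ± 20.9 FPKM with formaldehyde and 211 ± 68.2 FPKM untreated (SD, n = 2 each), and the log2 fold change was 0.07 ± 0.31 (SE), with a 95% interval of -0.72 to 0.85. BiP is the standard marker of this response, and the interval allows a fold between 0.607 and 1.81 on the FPKM + 1 scale.

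HSP90B1, the ER member of the heat shock protein 90 family that folds integrins and receptors (chromosome 12, 104324189 to 104341703), stood at 277 and 465 FPKM with formaldehyde, against 367 and 523 FPKM untreated. Each formaldehyde library lay below the untreated library of its number, but the groups overlapped. Its log2 fold change of -0.29 ± 0.37 (SE) was the lowest of the members, with a 95% interval of -1.23 to 0.66. PDIA4, a disulfide isomerase that forms and reshuffles disulfide bonds (chromosome 7, 148700154 to 148725782), stood at 116 and 153 FPKM with formaldehyde, against 114 and 203 FPKM untreated. Both formaldehyde values lay inside the range of the untreated ones, of which replicate 2 was high. Its log2 fold change was -0.19 ± 0.36 (SE).

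The ratio of HSP90B1 to HSPA5, the members with the highest levels, differed between libraries. It was 1.37 and 2.01 in formaldehyde replicates 1 and 2 and 2.25 and 2.02 in untreated replicates 1 and 2. Formaldehyde replicate 1 was therefore the library with the least HSP90B1 per HSPA5.

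For both cochaperones each formaldehyde library stood above the untreated library of its number. SDF2L1, an ER protein that works with the BiP cochaperone system (chromosome 22, 21996542 to 21998588), had the largest log2 fold change of the members, 0.36 ± 0.20 (SE), with a 95% interval of -0.16 to 0.88. Its means were 56.7 ± 6.51 FPKM with formaldehyde and 43.9 ± 0.801 FPKM untreated (SD, n = 2 each), a ratio of 1.29. The untreated libraries agreed within 2.61% of each other, and both formaldehyde libraries lay above them. Its level rested on 488 to 789 fragments a library, and the deposited 95% counting interval reached 7.12% to 9.05% to either side of the value. DNAJB9, a DnaJ cochaperone that helps BiP hold IRE1 inactive (chromosome 7, 108210189 to 108215294), stood at 6.20 and 5.13 FPKM with formaldehyde, against 5.79 and 5.05 FPKM untreated. Those differences are smaller than its counting interval, which reached 11.3% to 13.9% to either side of the value, and no change could be detected at this depth (log2 fold change 0.05 ± 0.21, SE).

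Neither secreted factor passed the test. MANF, a small protein kept in the ER and released under stress (chromosome 3, 51422692 to 51426828), stood at 116 and 179.9 FPKM with formaldehyde, against 126 and 189 FPKM untreated. CRELD2, an ER protein with EGF-like repeats (chromosome 22, 50312283 to 50321186), stood at 27.4 and 37.7 FPKM with formaldehyde, against 25.7 and 37.7 FPKM untreated. For both genes the spread between replicates of a group exceeded the difference between the groups. The log2 fold changes were -0.09 ± 0.34 and 0.04 ± 0.29 (SE), with 95% intervals of -0.97 to 0.78 for MANF and -0.70 to 0.79 for CRELD2.

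The 2 degradation genes differed in how their libraries were ordered. HERPUD1, a membrane protein of the ubiquitin ligase complex that extracts misfolded protein (chromosome 16, 56965748 to 56977793), stood at 16.6 and 17.03 FPKM with formaldehyde, against 13.1 and 20.0 FPKM untreated. As for HSPA5, the formaldehyde values lay inside the untreated range (log2 fold change 0.05 ± 0.26, SE, and -0.31 by the highest model in place of the sum). EDEM1, a lectin-like protein that hands misfolded glycoproteins to degradation (chromosome 3, 5229359 to 5261650), stood at 21.8 and 13.8 FPKM with formaldehyde, against 17.9 and 12.6 FPKM untreated. Replicate 1 was the higher library in each group and the groups overlapped (log2 fold change 0.20 ± 0.31, SE).

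XBP1, the transcription factor that IRE1 activates (chromosome 22, 29190548 to 29196560), stood at 50.5 and 65.5 FPKM with formaldehyde, against 42.0 and 56.9 FPKM untreated, over its 2 transcript models together. Each formaldehyde library lay above the untreated library of the same number, by 0.26 for replicate 1 and 0.20 for replicate 2 on the log2(FPKM + 1) scale, and the groups overlapped. The log2 fold change was 0.23 ± 0.26 (SE), with a 95% interval of -0.44 to 0.90. By the highest model in each library in place of the sum it was -0.01, and with 1 library left out it ran from 0.015 (without untreated replicate 1) to 0.44.

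**Figure D2:**
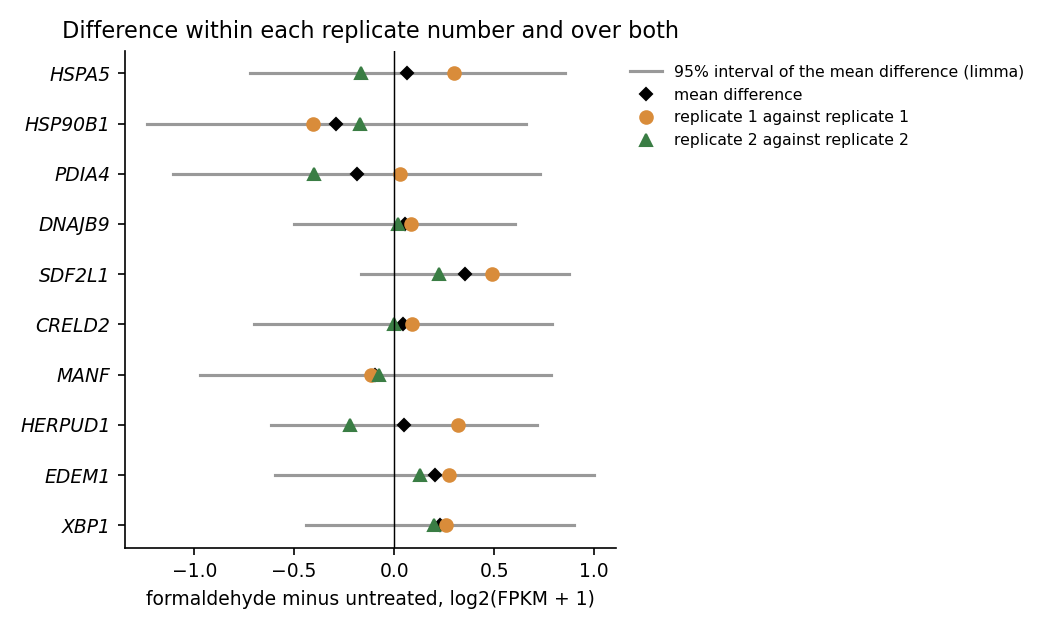
Difference in log2(FPKM + 1), formaldehyde minus untreated, for each member: circles for replicate 1 against replicate 1, triangles for replicate 2 against replicate 2, diamonds for the mean difference and grey lines for its 95% limma interval. Every interval crosses 0, and SDF2L1, XBP1, EDEM1 and DNAJB9 lie right of 0 in both replicate numbers.

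Set side by side by replicate number, 4 members (SDF2L1, XBP1, EDEM1, DNAJB9) were higher with formaldehyde in both numbers, 2 (HSP90B1, MANF) were lower in both, and 4 (HSPA5, PDIA4, HERPUD1, CRELD2) changed sign. Over all genes tested, 31.2% were higher in both numbers, 22.6% lower in both and 45.1% opposite, beside 4, 2 and 4 of 10 for the members. HSPA5 differed by 0.30 in replicate 1 and by -0.17 in replicate 2 on the log2(FPKM + 1) scale, HERPUD1 by 0.32 and -0.22, and PDIA4 by 0.03 and -0.40. The members' median difference was 0.17 in replicate 1 and -0.04 in replicate 2, while that of all genes was -0.03 and 0.10.

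Most members differed between the replicate numbers in the same direction in both groups. Replicate 2 lay above replicate 1 in both groups for 7 of the 10 members (HSPA5, HSP90B1, PDIA4, MANF, CRELD2, HERPUD1 and XBP1) and below it in both groups for DNAJB9 and EDEM1. Over all genes the shares were 29.3% above and 37.6% below. PDIA4 was 32.0% higher in replicate 2 than in replicate 1 with formaldehyde and 78.5% higher untreated, and MANF was 55.0% and 50.4% higher. The median over the members of replicate 2 minus replicate 1 was 0.28 with formaldehyde and 0.52 untreated (log2), against 0.00 and -0.10 over all genes. Depth differed in the same way, about 14200000 and 22200000 fragments in formaldehyde replicates 1 and 2 and about 16800000 and 26400000 in untreated replicates 1 and 2, and the 6 tested genes of a list of nuclear-retained and small RNA had a median of replicate 2 minus replicate 1 of -0.51 with formaldehyde and -0.17 untreated (log2). Their part in the members' values was not tested.

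The transcript models of XBP1 separate by the 26 nt that IRE1 removes. In the files the models NM_005080, the unspliced form, and NM_001079539 differ by the coding bases from 29192112 to 29192137 of chromosome 22 (hg19), exonic in the unspliced model and an intron in the other. The sequence is shown because this cut is the readout of IRE1 activity. It was read from GENCODE 29 transcripts (GRCh38, where the bases are chr22:28796124-28796149, minus strand), the capitals mark the 26 nt, and 7 placements of the cut give the same joined sequence.
XBP1 intron: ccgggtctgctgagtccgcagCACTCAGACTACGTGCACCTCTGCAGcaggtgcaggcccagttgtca
The model without the 26 nt stood at 0.000369 and 39.4 FPKM in formaldehyde replicates 1 and 2, against 0.000405 and 8.87 FPKM in untreated replicates 1 and 2. The unspliced model stood at 50.5 and 26.1 FPKM with formaldehyde, against 42.0 and 48.0 FPKM untreated. The spliced model was thus near 0 in both replicate 1 libraries and present in both replicate 2 libraries. Values near 0 were common in these files: of the 1251 genes with 2 models and at least 10 FPKM in each library, the lower model was under 0.1% of the gene in 19.7% and 17.8% with formaldehyde (replicates 1 and 2) and 18.9% and 16.2% untreated. Its share of the gene was 60.1% in formaldehyde replicate 2 and 15.6% in untreated replicate 2, with ranges of 56.1% to 64.0% and 13.2% to 18.1% from the deposited bounds of the models. In the replicate 1 libraries the share was at most 0.187% with formaldehyde and 0.190% untreated at those bounds.

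The difference of 44.5 percentage points in the replicate 2 libraries was seen in 1 library against 1 and was not seen in the replicate 1 libraries, so it has no replicate check. Among the same 1251 genes, 0.639% differed by as much between these libraries. How the reads over so short an intron were aligned and assigned is not given in the sources used here, and the 2 models differ by these bases alone. The bounds of the models come from the authors' software, and whether they cover the error of assigning reads to models was not tested.

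HERPUD1 had a similar pair, which differ by the 3 bases from 56969313 to 56969315 of chromosome 16 (hg19), at the start of an exon. They are shown because the estimated model shares, unlike the gene's level, did not overlap between the groups. The share of all genes with 2 models that did not overlap by any gap is not given here. The line was read from GENCODE 29 transcripts (GRCh38, chr16:56935401-56935403, plus strand), with the 3 bases in capitals.
HERPUD1 exon start: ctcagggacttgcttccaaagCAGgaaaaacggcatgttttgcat
The shorter model, NM_001010989, stood at 4.47 and 3.38 FPKM with formaldehyde, 26.9% and 19.8% of the gene, against 0.000103 and 0.0000898 FPKM untreated. It was thus estimated above 1 FPKM in the formaldehyde libraries and near 0 in the untreated ones, where 18.9% and 16.2% of the 1251 genes had a lower model under 0.1% of the gene. The deposited lower bound was 3.42 FPKM in formaldehyde replicate 1 and 0 in replicate 2, so its presence in replicate 2 is not set apart from 0. Among the same 1251 genes a gap between the groups as large as that of HERPUD1 was found in 0.0799%, which is HERPUD1 itself, and the pair was singled out after its values were seen. That gap was set by HERPUD1's own point estimates, so HERPUD1 had to meet it. At the deposited bounds the shorter model's share in formaldehyde replicate 2 ran from 0% to 42.5%. CRELD2 also had 2 models, and the longer one made up 3.17% and 3.75% of the gene with formaldehyde and 1.48% and 7.95% untreated.

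**Figure D3:**
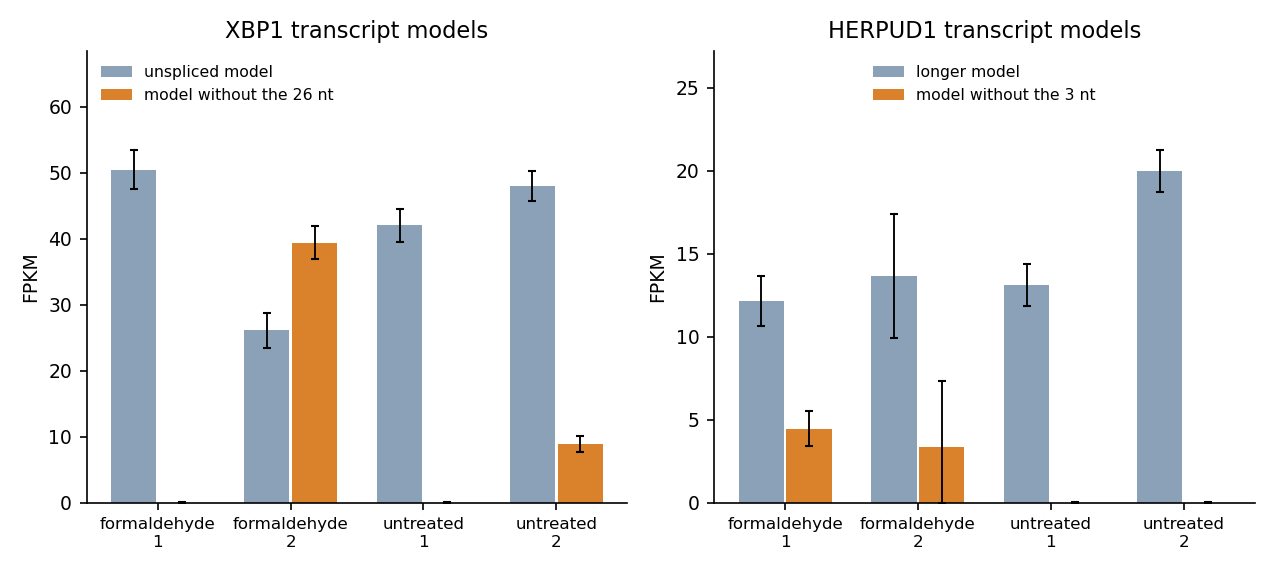
FPKM of the 2 transcript models of XBP1 (left) and HERPUD1 (right) in each library, formaldehyde left of untreated, with the deposited bounds as error bars. The XBP1 model without the 26 nt reaches 39.4 FPKM in formaldehyde replicate 2 and 8.87 FPKM in untreated replicate 2 and is near 0 in both replicate 1 libraries, and the shorter HERPUD1 model stands at 4.47 and 3.38 FPKM with formaldehyde, the second with a lower bound of 0, and near 0 untreated.

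The wider pathway was described with lists of companion genes. No companion was called, over all genes, in any list. Counts of companions whose groups did not overlap stand beside 16.2% upward and 10.7% downward over all genes tested. Among 9 sensors and factors, 5 had a higher and 4 a lower mean with formaldehyde and the median log2 fold change was 0.06 (-0.09 without formaldehyde replicate 1 and 0.13 without untreated replicate 1). ERN1, the gene of IRE1, stood at 3.55 and 2.53 FPKM with formaldehyde, against 2.02 and 2.27 FPKM untreated, and both formaldehyde libraries lay above the untreated ones. EIF2AK3, the gene of PERK, stood at 4.57 and 5.63 FPKM with formaldehyde, against 6.74 and 7.16 FPKM untreated, and lay below. CREB3, an ER-bound factor related to ATF6, stood at 35.8 and 31.9 FPKM with formaldehyde, against 28.98 and 24.0 FPKM untreated. None of the 3 passed (limma log2 fold changes of 0.35, -0.39 and 0.35 in turn, adjusted p = 0.9999 each).

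No other folding gene was called. Of 15 ER chaperones and cochaperones, 6 had a higher and 9 a lower mean with formaldehyde and the median log2 fold change was -0.05 (-0.17 without formaldehyde replicate 2 and -0.0056 without formaldehyde replicate 1). The groups did not overlap in 1 upward and 4 downward, where all genes had 16.2% and 10.7%. UGGT1, the folding sensor of glycoproteins, stood at 14.0 and 15.8 FPKM with formaldehyde, against 18.9 and 21.1 FPKM untreated. FKBP7, a prolyl isomerase of the ER, stood at 1.30 and 1.35 FPKM with formaldehyde, against 1.83 and 2.10 FPKM untreated. Of 14 disulfide isomerases and oxidases, 5 were higher and 9 lower, with a median of -0.08 (0.067 without untreated replicate 2) and log2 fold changes from -0.21 to 0.13. ERP44, which retains secretory proteins with free thiols, stood at 11.5 and 15.2 FPKM with formaldehyde, against 13.7 and 17.3 FPKM untreated, and its groups overlapped.

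The lists for degradation, entry into the ER and transport out of it had medians near that of all genes, and leaving out 1 library moved them to between -0.0038 and 0.13, -0.14 and 0.13, and -0.13 and 0.26 in turn. Of 19 degradation genes, 10 were higher and 9 lower (median log2 fold change 0.01). UBE2J1, a ubiquitin-conjugating enzyme of the ER membrane, stood at 24.4 and 20.4 FPKM with formaldehyde, against 19.8 and 15.1 FPKM untreated, whereas SEL1L, the scaffold of the ligase complex, stood at 8.57 and 7.74 FPKM with formaldehyde, against 10.4 and 9.13 FPKM untreated. Of 24 genes of translocation and N-glycosylation, 12 were higher and 12 lower (median 0.02), with groups that did not overlap in 2 upward and 7 downward, beside 16.2% and 10.7% over all genes. SEC11C, a catalytic subunit of signal peptidase, stood at 69.5 and 51.3 FPKM with formaldehyde, against 45.5 and 28.7 FPKM untreated. RPN2, a subunit of the oligosaccharyltransferase, stood at 171 and 166 FPKM with formaldehyde, against 179 and 216 FPKM untreated. Of 20 transport genes, 11 were higher and 9 lower (median 0.02). MCFD2, a cargo receptor subunit, stood at 53.1 and 42.1 FPKM with formaldehyde, against 36.1 and 30.3 FPKM untreated, whereas KDELR3, a receptor that returns escaped chaperones, stood at 14.5 and 13.7 FPKM with formaldehyde, against 18.4 and 15.1 FPKM untreated. Members of 1 list thus lay on both sides of 0.

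The PERK and ATF4 list had a median log2 fold change of 0.41 over 13 genes against 0.05 over the 10 members, and the difference between the lists was not tested. Untreated replicate 1 decided its sign, since the median was -0.064 without that library and 0.88 without untreated replicate 2. In it 9 genes were higher and 4 lower, the groups did not overlap in 4, all upward, and 1 had an unadjusted p under 0.05. Over all genes 16.2% did not overlap upward and 2.76% had an unadjusted p under 0.05. TRIB3, a pseudokinase and known ATF4 target, stood at 68.3 and 67.5 FPKM with formaldehyde, against 21.8 and 27.7 FPKM untreated. ASNS, asparagine synthetase, stood at 62.1 and 64.3 FPKM with formaldehyde, against 36.6 and 50.4 FPKM untreated. ATF4 and DDIT3 had log2 fold changes of 0.27 and 0.66. The 4 lower genes were ATF3 (-0.56), VLDLR (-0.26), NUPR1 (-0.16) and CEBPB (-0.04). TRIB3 was not called over all genes (limma log2 fold change 1.43 ± 0.21, SE, adjusted p = 0.413). The ATF4 list was made with earlier results of these data known, so its median is no independent support.

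Substrates that IRE1 is known to cut stood at a median log2 fold change of -0.28 over 5 genes, of which 4 were lower, with a median of -0.60 without untreated replicate 1 and -0.18 without formaldehyde replicate 2. PDGFRB, a growth factor receptor, stood at 7.40 and 22.2 FPKM with formaldehyde, against 21.8 and 29.97 FPKM untreated. SCARA3, a scavenger receptor, stood at 14.1 and 19.3 FPKM with formaldehyde, against 19.6 and 25.4 FPKM untreated, and its groups did not overlap. PDGFRB is also a mesenchymal marker. Of the 6 mesenchymal markers 4 (COL1A1, COL1A2, LUM and PDGFRB) were lower with formaldehyde in both replicate numbers, as were 22.6% of all genes tested. Among the 4, COL1A2 and LUM were close to the floor. COL1A2 stood at 0.149 and 0.545 FPKM with formaldehyde, against 0.480 and 1.34 FPKM untreated, and LUM at 0.184 and 0.165 FPKM against 0.405 and 0.356 FPKM. COL1A1 stood at 137 and 254 FPKM with formaldehyde, against 279 and 568 FPKM untreated, and DCN was listed at 0 in 3 libraries. VIM went the other way, at 1043 and 786 FPKM with formaldehyde against 782 and 642 FPKM untreated. The markers summed to 1188 and 1063 FPKM with formaldehyde and 1083 and 1241 FPKM untreated, and without VIM to 145 and 277 FPKM with formaldehyde and 301 and 599.5 FPKM untreated. The part of cell state in those values was not tested. Cytosolic and mitochondrial chaperones, which answer to other factors, had a median of 0.13 over 13 genes. Leaving out untreated replicate 1 gave 0.41 and leaving out untreated replicate 2 gave -0.033. HSP90AB1, a cytosolic relative of HSP90B1, stood at 497 and 444 FPKM with formaldehyde, against 397 and 306 FPKM untreated. HSPA1A, the inducible cytosolic relative of HSPA5, stood at 97.5 and 82.6 FPKM with formaldehyde, against 98.3 and 155 FPKM untreated, and it has a near-identical neighbour, HSPA1B, with which reads may be shared.

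**Figure D4:**
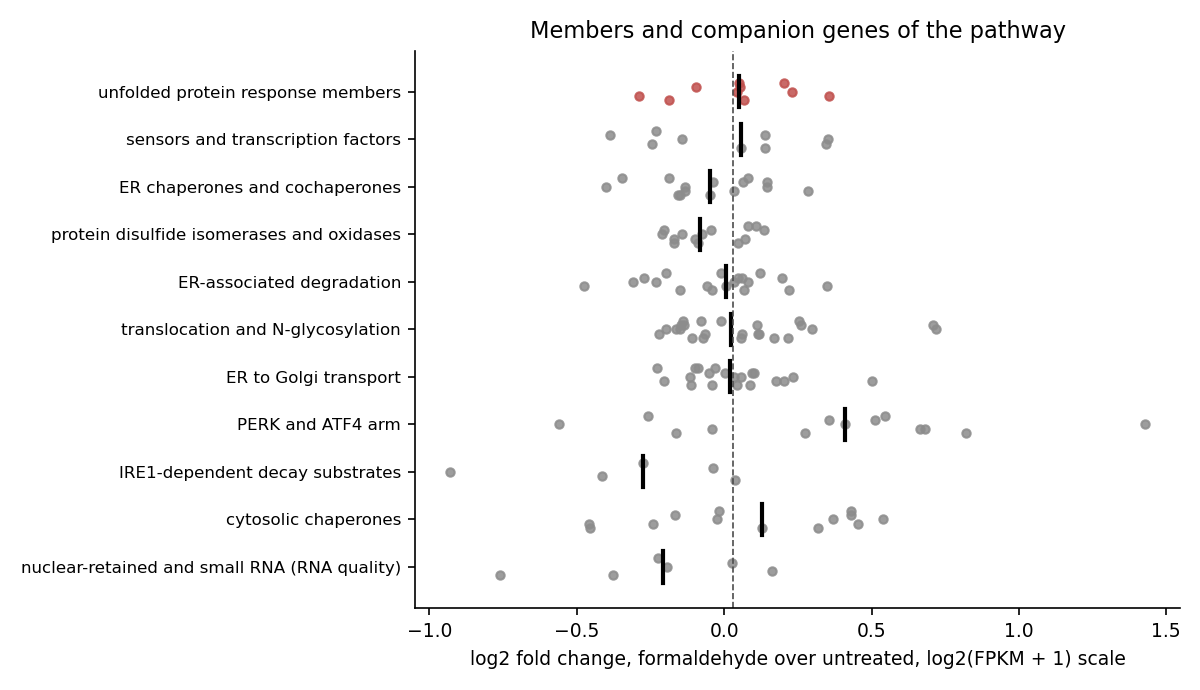
Log2 fold change (formaldehyde over untreated, log2(FPKM + 1) scale) of each tested gene of the member list, in red, and of each companion list, in grey, with a black bar at the list's median and a dashed line at the median of all genes tested. The members lie between -0.29 and 0.36 with a median of 0.05, and the PERK and ATF4 list has a median of 0.41.

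Other genes with the same DNA element were read in the same way. Apart from the members, 38 gene symbols had ERSE or ERSE-II in a window, and 22 of them were tested. Of these, 9 were higher and 13 lower with formaldehyde, the groups did not overlap in 2 upward and 2 downward (16.2% and 10.7% over all genes), and the median log2 fold change was -0.04, with 0 called by limma and 0 at an unadjusted p under 0.05. CALR, the lectin chaperone calreticulin (chosen after its values were seen), stood at 685 and 898 FPKM with formaldehyde, against 617 and 1238 FPKM untreated. Within the members, log2 fold changes ran from -0.29 to 0.36 in the 6 with an element in the window and from -0.19 to 0.20 in the 4 without.

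The genes whose 4 values most resembled the members' median profile, by Euclidean distance of centred log2(FPKM + 1) among 6612 genes of at least 10 FPKM outside all lists, were ZBTB17, P4HA2, DMWD, EML3 and TONSL, at distances of 0.028 to 0.045. P4HA2, for example, stood at 64.1 and 72.3 FPKM with formaldehyde, against 55.9 and 82.1 FPKM untreated. With 4 libraries many genes share a profile, and the likeness is a description.

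The cells were checked against markers of their label. The epithelial keratins KRT8, KRT18 and KRT7 were abundant in all libraries, the lowest value being 140 FPKM for KRT7 in untreated replicate 2, whereas KRT5 and TP63 were listed at 0 and KRT19 and CDH1 were under 1 FPKM in each. The 10 epithelial markers summed to 1401 and 1206 FPKM with formaldehyde and 736 and 821 FPKM untreated. KRT8, KRT18 and KRT7 made up most of each sum. KRT17 stood at 61.2 and 48.0 FPKM with formaldehyde, against 26.4 and 178 FPKM untreated, so its replicate numbers went opposite ways. The part of the difference between the sums in the members' values was not tested. In bulk RNA, fewer cells of a type and less RNA per cell cannot be told apart. Markers of plasma cells and other professional secretory cells, in which this response is strong, were under 1 FPKM in every library.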

How the data were processed

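Total RNA was sequenced from 4 libraries, 2 with formaldehyde and 2 untreated. Per the submitters' processing notes FastQC 0.10.0, STAR 2.5.2 and Cufflinks 2.0.2 were used with the builds hg19 and GRCh37. Strand and multi-mapped reads are not given in the sources used. Each deposited transcript carries an FPKM that the authors computed, packed with its 95% bounds in the attribute text. Depth (about 14200000 to 26400000 fragments) and fragment numbers were recovered from those bounds over transcripts with 1 model. The bounds of these transcripts were taken as counting error only, and they do not cover the spread between libraries. The FPKM of 39361 named transcripts (894 unnamed ones left out) were summed per gene. limma 3.58.1 (R 4.3.3) was run on log2(FPKM + 1) for genes averaging at least 1 FPKM (mean trend, no covariate, two-sided, Benjamini-Hochberg over 12407 genes, threshold 0.05); this scale understates the change of low genes. The test was checked on simulated libraries, drawn independently of each other with each gene's observed spread within the groups taken as its true spread. It recovered 0% of 200 genes changed 2-fold, 41.0% at 4-fold and 69.0% at 8-fold over 12407 genes, with 0, 2 and 10 false calls in turn. The changed genes were drawn from those with a mean log2 above that of 10 FPKM, so DNAJB9 lies outside this setting. The members, lists and companion genes (up to 4 per list, by absolute moderated t) were chosen with earlier results of these data known, and not every companion chosen is named. Sequences came from RefSeq promoter windows (GRCh38.p14) and GENCODE 29 transcripts; no coordinates were converted between builds. Of the companion list names, 1 was not found among the gene names. Tables and figures were made with Python 3.11.15 and matplotlib 3.10.9.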

Additional observations from a re-analysis of the deposited data

How the results depend on the processing

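No member was called under any of the 14 alternatives run (lowest limma adjusted p = 0.710, with the replicate block), and 119 of the 140 member results kept their direction. Many of these results could not turn, because the filters, the length limit, the mean trend and the replicate block leave a member's log2 fold change unchanged. The highest transcript changes it only for members with more than 1 model. SDF2L1 stayed positive in all alternatives, from 0.24 to 0.47. Its groups did not overlap, so leaving out 1 library could not turn its sign. Only the rescalings could have done so. The sign turned with the same FPKM sum for DNAJB9 (-0.0039), HERPUD1 (-0.012) and CRELD2 (-0.020), with quantile normalization for HSPA5 (-0.0033) and CRELD2 (-0.026), and by the highest transcript in place of the sum for XBP1 (-0.011) and HERPUD1 (-0.31). Leaving out 1 library gave log2 fold changes of -0.27 to 0.40 for HSPA5, -0.66 to 0.085 for HSP90B1, -0.60 to 0.23 for PDIA4, -0.064 to 0.17 for DNAJB9, -0.41 to 0.22 for MANF, -0.22 to 0.31 for CRELD2, -0.24 to 0.34 for HERPUD1, -0.11 to 0.51 for EDEM1 and 0.015 to 0.44 for XBP1. It gave 2 to 9 members whose groups did not overlap, beside 50.4% to 75.2% of all genes in the same comparisons, and member medians of -0.23 (without untreated replicate 1) to 0.27 (without untreated replicate 2); the group left with 1 library is then assumed to vary like the other. Over all genes 19 were called, against 46 to 62 with 1 library left out, 1 among genes with a transcript of at least 300 nt, 0 with no filter on low values and 29 with the replicate block. The cause was not tested. The labels give the numbers no meaning, and deviations from the group means correlated at 0.253 between same-numbered libraries. Among genes with a mean log2 above that of 10 FPKM, which hold every member except DNAJB9, that correlation was 0.360. Effects of 2-fold were not called in the simulated libraries, whose setting may differ from that of the data.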
